A study of Mus musculus with 6 samples.

Results

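The 3 wild-type (WT) libraries of a mouse RNA-seq series of 6 libraries were described on their own, with no comparison between genotypes. They were chosen by their genotype label and are called WT NPC 1, 2 and 3 here, for neural progenitor cells (NPCs). The series was made to study *Armc5*, which encodes an adaptor of an E3 ubiquitin ligase, and its other 3 libraries come from knockout cultures that were not used. The ganglionic eminences, swellings of the ventral forebrain, were dissected from e13.5 fetuses and dissociated, and the cells were grown in serum-free suspension with 20 ng/ml epidermal growth factor (EGF). Neurospheres of the second passage were taken. The labels give the strain as 129 sv X CD1, whereas the study's text describes its mice as CD1 crossed with C57BL/6, and it names brain and spinal cord in one place and ganglionic eminences in another. All 3 cultures shared genotype, medium, growth factor and passage. Whether each came from 1 fetus or from pooled fetuses was not stated in the labels or the methods, so the spread between them may be partly technical. Fresh tissue was not measured, and neurospheres hold what grew in EGF rather than the eminence itself.

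The measured unit was the locus, a stretch of the genome that the authors assembled from reads and annotation and for which they counted fragments. Of 59699 loci, 53103 named at least 1 gene. The libraries held 67174765, 74467951 and 69074380 counts. Counts were divided by the library total and scaled to a total of 1000000 (CPM), and 3 numbers in a row below give WT NPC 1, 2 and 3 in that order. A locus was called detected at 1 CPM or more in all 3 cultures, and 15097 of 59699 loci passed, which is 25.3%. At this limit a locus had 67.2, 74.5 and 69.1 counts, so counting alone gives a coefficient of variation of 11.6 to 12.2%, and a count of 0 allows at most 0.0447, 0.0403 and 0.0434 CPM (3 counts). The last locus inside the limit, an unnamed one, had 1.83, 1.01 and 1.72 CPM, and the first outside, *Rpl9-ps7*, had 1.34, 1.53 and 0.999 CPM. Detected loci held 99.4% of the mean CPM, and their median was 22.4 CPM. Leaving out WT NPC 1 gave 15597 detected loci.

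Neurospheres are floating clusters of neural stem and progenitor cells that divide in response to EGF. In the ganglionic eminence of the fetus, progenitors that express *Dlx* genes and *Gsx2* give rise to the GABAergic neurons of the striatum and to cortical interneurons, and a ventral domain that expresses *Nkx2-1* and *Olig2* gives rise to early oligodendrocyte precursors. In culture such cells keep dividing, and can form neurons, astrocytes and oligodendrocytes once the growth factor is withdrawn.

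The label of the cells was checked against its markers. *Sox2*, a stem cell transcription factor, had 515, 602 and 531 CPM, though in a locus merged with *Sox2ot*, the noncoding gene that overlaps it, so that their fragments cannot be separated. *Nes*, the intermediate filament of neural progenitors, had 400.2, 342 and 423 CPM, and *Mki67*, a marker of cycling cells, had 718, 972 and 839 CPM. The progenitor label therefore held in all 3 cultures. The regional label did not hold equally. WT NPC 1 had under 1 CPM of *Dlx1*, *Dlx2*, *Dlx5*, *Dlx6*, *Gsx1* and *Gsx2*, whereas WT NPC 2 and 3 had all of these but *Dlx6* above 1 CPM, *Dlx6* being above it only in WT NPC 3. The 3 libraries are therefore called WT NPCs below and no region is taken for granted, and the counts of the lists that moved most without WT NPC 1, or without the culture that was highest, are given beside them. *Armc5* had 29.3, 28.4 and 26.0 CPM, close together in the 3 cultures.

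Transcripts made by RNA polymerase III and by mitochondria were among the most abundant. The 20 highest loci held 13.03, 12.3 and 11.03% of the counts. On the CPM scale the first was a merged mitochondrial locus of 12 genes with 38554, 27782 and 35116 CPM. It was followed by *Gm26917* and *Gm42418*, overlapping genes on chromosome 17 that are annotated as noncoding and known to cover sequence like that of ribosomal RNA, with 23807, 25179 and 17462 CPM, and by *Rn7sk*, which encodes 7SK, the small nuclear RNA of the complex that sequesters P-TEFb, with 12124, 15498 and 8001 CPM. *Rn7sk* was highest in WT NPC 2 and lowest in WT NPC 3, with a ratio of 1.94 between them. Per kilobase of exon *Rn7sk* ranked first, with 35874 ± 11343 CPM per kilobase (SD, n = 3), and was followed by *Rmrp*, the RNA of RNase MRP, with 11382 ± 3602 CPM per kilobase (SD, n = 3). Next per kilobase came the signal recognition particle RNAs *Rn7s1* and *Rn7s2*, with 9868 ± 213 CPM per kilobase (SD, n = 3) and 9763 ± 273 CPM per kilobase (SD, n = 3). The share of counts of each class is shown in the plot of counts by class of locus.

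A pair of predicted genes among the 20 highest loci carry 7SK sequence. *Gm24447* had 2935, 3956 and 1962 CPM and *Gm26315* had 2740.0, 3696 and 1830.1 CPM. Aligned to *Rn7sk*, *Gm24447* was identical at 91.1% of 314 positions, with a run of 241 identical bases, and *Gm26315* at 92.1% of 303 positions, with a run of 235. The ratio of *Gm24447* to *Rn7sk* was 0.242, 0.255 and 0.245, and that of *Gm26315* to *Rn7sk* was 0.226, 0.239 and 0.229, so all 3 loci moved together between cultures. Reads that fit more than 1 of them cannot be assigned with certainty, and the counts of the copies are uncertain. The first 60 bases of each are printed to show a stretch in which little tells the loci apart (GENCODE vM21, GRCm38, 5′ to 3′). Other parts differ more. The alignment held 28 mismatches and 25 gaps for *Gm24447* and 24 mismatches and 26 gaps for *Gm26315*, most of them outside these bases. Capitals mark bases that differ from *Rn7sk* or face a gap in it in the alignment, and a base of *Rn7sk* that the copy lacks is not marked. *Rn7sk* lies at chr9:78175574-78175633 on the minus strand, *Gm24447* at chr15:93234363-93234422 on the plus strand and *Gm26315* at chr2:7076355-7076414 on the minus strand.
Rn7sk: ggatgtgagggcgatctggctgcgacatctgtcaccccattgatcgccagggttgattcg
Gm24447: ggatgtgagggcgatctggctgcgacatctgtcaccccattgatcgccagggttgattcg
Gm26315: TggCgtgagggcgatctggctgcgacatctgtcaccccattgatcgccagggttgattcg

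**Figure D1:**
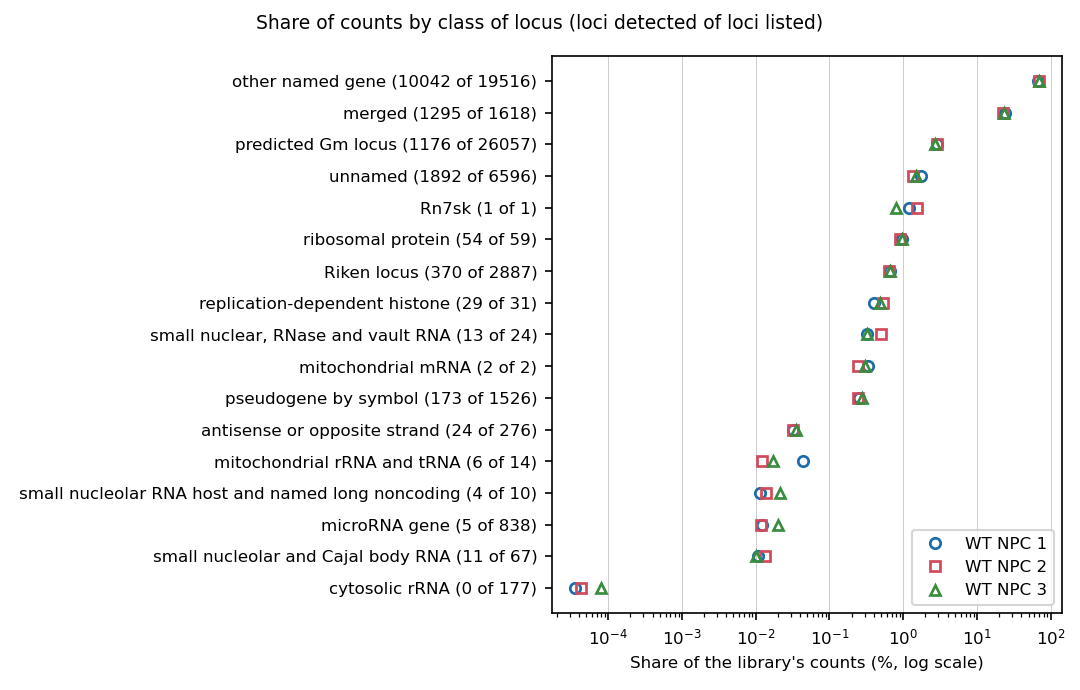
Share of all counts (percent, log scale) held by each class of locus in WT NPC 1, 2 and 3. Loci naming 1 ordinary gene held 67.4 to 68.9%, merged loci 22.7 to 23.7%, and all small RNA classes other than *Rn7sk* were below 1%.

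Mitochondrial sequence was also counted in more than 1 place. The mitochondrial chromosome held 4.68, 3.33 and 4.25% of the counts, lowest in WT NPC 2. A block on chromosome 1 annotated as pseudogenes had near-identical copies of mitochondrial coding genes. *Gm28661*, in a locus with *Gm29216*, matched *mt-Co2*, subunit 2 of cytochrome c oxidase, at 100% of 681 positions, and its locus had 4961, 3444 and 4474 CPM against 2939, 2093 and 2656 CPM for *mt-Co2*. *Gm10925*, a copy of the ATP synthase subunit *mt-Atp6* with 100% identity over 678 positions, had 3905, 2897 and 3016 CPM. *Gm28438* differed from *mt-Nd3*, a subunit of complex I, at 1 of 345 positions, and its CPM was 1.02 times that of *mt-Nd3* in each culture. Levels at these loci are uncertain for both the gene and its copy, and for *mt-Co2* and *mt-Nd3* the gene and its copy had the same order of cultures. The first 60 bases of *mt-Nd3* (chrM:9459-9518, plus strand) and of *Gm28438* (chr1:24613060-24613119, minus strand; GENCODE vM21, GRCm38) are printed to show the 1 difference, in capitals.
mt-Nd3: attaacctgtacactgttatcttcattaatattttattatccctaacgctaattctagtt
Gm28438: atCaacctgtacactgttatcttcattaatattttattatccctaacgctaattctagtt

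Of the classes, loci that named 1 ordinary gene held 67.4, 68.3 and 68.9% of the counts and merged loci 23.7, 22.7 and 22.99%. Exact 95% binomial intervals of such shares were narrow, 67.41 to 67.43% for the first in WT NPC 1, and cover counting error only. Predicted *Gm* loci held 2.90, 2.91 and 2.69%, *Rn7sk* alone 1.21, 1.55 and 0.8001%, and loci without any gene name 1.72, 1.37 and 1.51%. By the biotype of the reference, protein-coding genes in loci of their own held 69.8, 70.6 and 71.4%. Of these, 10286 of 19615 were detected, or 52.4%. This share is the reference for the numbers detected in the lists of coding genes below. Ribosomal protein genes with a locus of their own were even between cultures at 0.955, 0.917 and 0.960% of counts. *Rplp0*, of the ribosomal stalk, led them with 906, 707 and 687 CPM, and of 54 detected 1 differed by 2-fold or more, *Rps3a3*, with 140.3, 35.0 and 132 CPM. Replication-dependent histone genes, whose transcripts mostly lack a poly(A) tail and are kept by rRNA depletion, held 0.403, 0.530 and 0.485%. The H4 gene *Hist1h4d* had 348, 636 and 676 CPM, *Hist2h3c2* had 449, 531 and 533 CPM, and the linker histone *Hist1h1b* had 296, 334 and 312 CPM. Of the loci named as cytosolic rRNA, nearly all of them 5S, 0 of 177 were detected. The mitochondrial rRNAs *mt-Rnr1* and *mt-Rnr2* had 139.8, 15.7 and 18.6 CPM and 215, 21.4 and 24.5 CPM. WT NPC 1 stood apart for both, and whether this bears on other results was not tested.

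WT NPC 1 also stood apart at a few loci without a gene name. The locus at chr11:108930578-109012146 had 568, 56.8 and 28.3 CPM, and that at chr16:57356249-57442089 had 481, 51.8 and 28.1 CPM. Their exons came to 512 and 706 bases. WT NPC 1 was far above the other two cultures at both. The small nucleolar RNA genes *Rnu3b3* and *Rnu3b4*, for U3, were uneven in another way. They were highest in WT NPC 3, with 45.2, 60.5 and 146 CPM and 44.7, 60.2 and 146 CPM. These are near-identical copies, so the split of fragments between them is uncertain.

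Levels otherwise agreed closely between cultures. Across the 15097 detected loci Pearson's r of log2 CPM was 0.969 for WT NPC 1 and 2, 0.969 for 1 and 3 and 0.977 for 2 and 3. These describe loci, which share library and depth and are not independent replicates. The median ratio of the highest to the lowest culture was 1.28, and 90% of loci had a ratio under 2.12. A spread of 2-fold or more was found at 1765 loci, which is 11.7% of those detected. WT NPC 1 was highest at 583 of them (3.86% of detected loci), WT NPC 2 at 542 (3.59%) and WT NPC 3 at 640 (4.24%). Taken in pairs, 1042 of the same loci differed by 2-fold or more between WT NPC 1 and 2, 1015 between 1 and 3 and 768 between 2 and 3. A pair has less room for a spread than 3 cultures, which holds for every count below that leaves a culture out. The common biological coefficient of variation by edgeR was 0.251, and 0.232 without WT NPC 1. With 1 library a culture, a difference between cultures has no replicate, so spread is described and no test was made. These shares are the background against which each gene list below is read. They are shares of all detected loci, so they belong beside the detected members of a list and not beside those that spread.

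**Figure D2:**
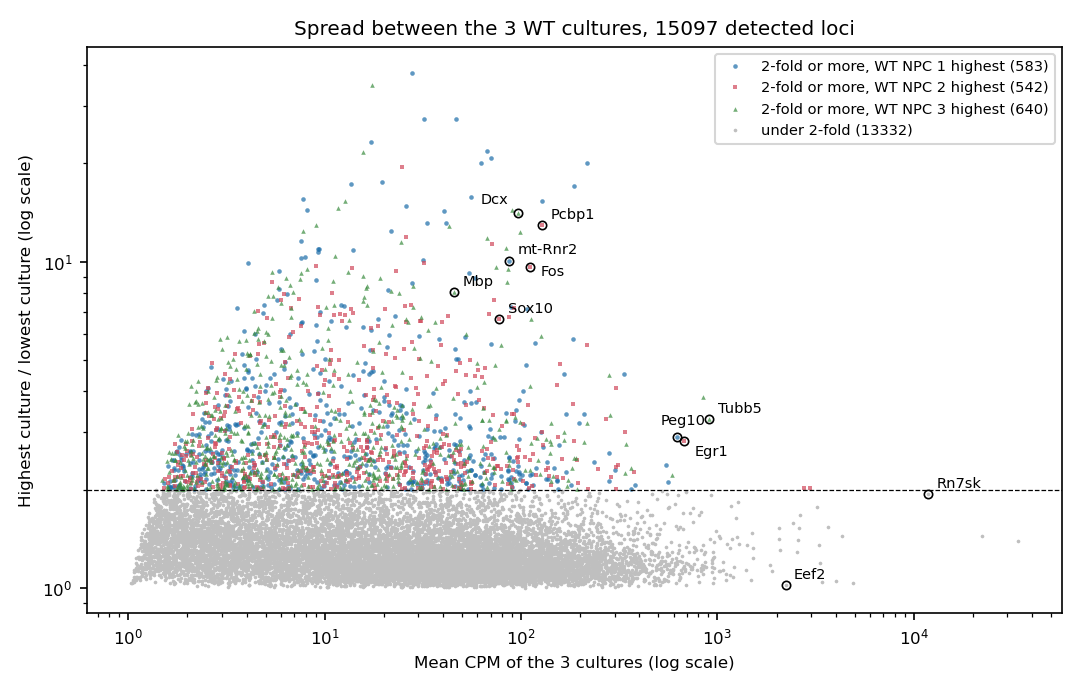
Ratio of the highest to the lowest WT culture (log scale) against mean CPM (log scale) for the 15097 detected loci, coloured by the culture that was highest where the ratio reached 2 (dashed line). Labelled genes run from *Eef2* with a ratio of 1.02 to *Dcx* with 14.1.

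The share of loci with a 2-fold spread was 19.5% at means of 3 to 10 CPM and 5.00% (119 of 2380) above 100 CPM. Some differences fell on loci much longer than the gene they name. *Tubb5*, a beta-tubulin, had 1110.0, 376 and 1238 CPM in a locus of 248.8 kb although the gene spans 4.39 kb, and *Pcbp1*, an RNA-binding protein and among the 20 largest ratios, had 48.0, 313 and 24.2 CPM in a locus of 428 kb for a gene of 1.83 kb. Such a span was found at 5.86% of detected loci naming 1 annotated gene, at 6.82% of those with a 2-fold spread and at 6 of the 20 largest ratios. Values of these loci may include other transcripts. At the other end, *Klhl5* had 104, 104 and 104 CPM, the ribosomal protein gene *Rps19* had 256, 258 and 258 CPM, and the mitotic checkpoint kinase *Bub1* had 104, 105 and 104 CPM, with differences within a few percent.

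Progenitor genes were high, and most stayed under a 2-fold spread. Of 21 listed, 20 were detected, with a median of 285 CPM against 22.4 CPM over all detected loci, and 3 of the 20, or 15%, had a 2-fold spread, against 11.7% of all detected loci and 5.00% of those above 100 CPM. Without WT NPC 1 the count was 1. *Egfr*, the receptor for the EGF in the medium, had 1113, 1227 and 1286 CPM. The matrix glycoprotein gene *Tnc* had 992, 1400.2 and 1173 CPM, the glutamate transporter gene *Slc1a3* 878, 1004 and 1010.3 CPM, and *Vim*, an intermediate filament, 907, 764 and 913 CPM. *Fabp7*, a fatty acid binding protein of radial glia, had 673, 876 and 780.5 CPM. The 3 genes that spread were *Msi1*, *Msi2* and *Prom1*. *Msi1* and *Msi2* encode RNA-binding proteins of progenitors and had 62.0, 163 and 177 CPM and 212, 479.8 and 436 CPM, lowest in WT NPC 1. *Prom1*, a surface glycoprotein, had 14.1, 51.4 and 20.4 CPM and was highest in WT NPC 2. Per kilobase of exon the highest of the markers named were *Fabp7* with 621 ± 81.2 CPM per kilobase (SD, n = 3) and *Vim* with 182 ± 17.8 CPM per kilobase (SD, n = 3).

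Cell cycle genes were detected without exception in this list of 22, with a median of 161 CPM. *Ccnd1*, the cyclin D that follows growth factor signals, had 1142, 856 and 1523 CPM, *Top2a*, a topoisomerase of dividing cells, had 517, 635 and 599 CPM, and *Ccna2*, the S and G2 phase cyclin, had 265, 275 and 318 CPM. The S phase enzyme gene *Rrm2* had 193, 209 and 268 CPM. *Ccnd2* was the 1 gene of the list with a 2-fold spread, with 344, 651 and 761 CPM, lowest in WT NPC 1. The background is 11.7% over all detected loci and 5.00% above 100 CPM, and 1 in 22 is near the second. The 90 bases before the start of *Mki67* are printed because the gene is a marker of the cells (RefSeq, GRCm38.p6, chr7:135716380-135716469, minus strand). Capitals mark GC boxes, the letters GGGCGG, which 35.9% of all 27025 promoters of 300 bases held on either strand. In detected protein-coding genes without a 2-fold spread the share was 68.1%, so a GC box is common among detected genes. A match is a description of letters and not evidence that a factor binds.
Mki67: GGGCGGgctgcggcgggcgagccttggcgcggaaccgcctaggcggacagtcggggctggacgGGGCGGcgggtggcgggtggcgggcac

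Genes of the oligodendrocyte lineage were detected in every culture, with several of them highest in WT NPC 2. All 10 precursor genes were detected. *Olig1* and *Olig2*, the transcription factors of the lineage, had 1175, 1258 and 1166 CPM and 964, 956 and 933 CPM, and the surface phosphatase gene *Ptprz1* had 1861, 2424 and 1961 CPM, without a 2-fold spread. The 5 genes that did spread were all highest in WT NPC 2, and between WT NPC 1 and 3 alone 1 gene spread. *Sox10*, the factor that marks commitment to the lineage, had 24.3, 162 and 46.5 CPM. *Gpr17*, a receptor of differentiating precursors, had 69.7, 386 and 197 CPM, and *Pdgfra*, the receptor for platelet-derived growth factor, had 87.7, 321 and 144 CPM in a locus shared with a microRNA. *Cspg4*, the NG2 proteoglycan, had 89.0, 218 and 79.8 CPM, and *Nkx2-2* had 23.9, 57.6 and 42.7 CPM. Against a background of 3.59% of loci highest in WT NPC 2 with this spread, 5 of 10 is a larger share. In a bulk library, fewer cells of a type and less RNA per cell cannot be told apart.

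Myelin genes were lower, all those detected spread, and WT NPC 1 was lowest for each of those named here. Of 10 listed, 7 were detected and 7 of 7 had a 2-fold spread, 3 highest in WT NPC 2 and 4 in WT NPC 3. Over all detected loci 11.7% spread. Without WT NPC 1 the count was 2 of 7. *Cnp*, an enzyme of immature and mature oligodendrocytes, had 88.2, 219 and 179 CPM. *Mbp*, a main myelin protein gene, had 10.4, 43.1 and 83.8 CPM. *Myrf*, the regulator of the myelin programme, had 10.6, 72.3 and 45.2 CPM and *Mag*, a late myelin gene, had 1.37, 8.14 and 17.7 CPM. *Enpp6*, an enzyme of newly formed oligodendrocytes and among the 20 largest ratios of all loci, had 3.27, 38.9 and 35.4 CPM. *Mobp* was not detected, with 0.759, 0.859 and 10.4 CPM.

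**Figure D3:**
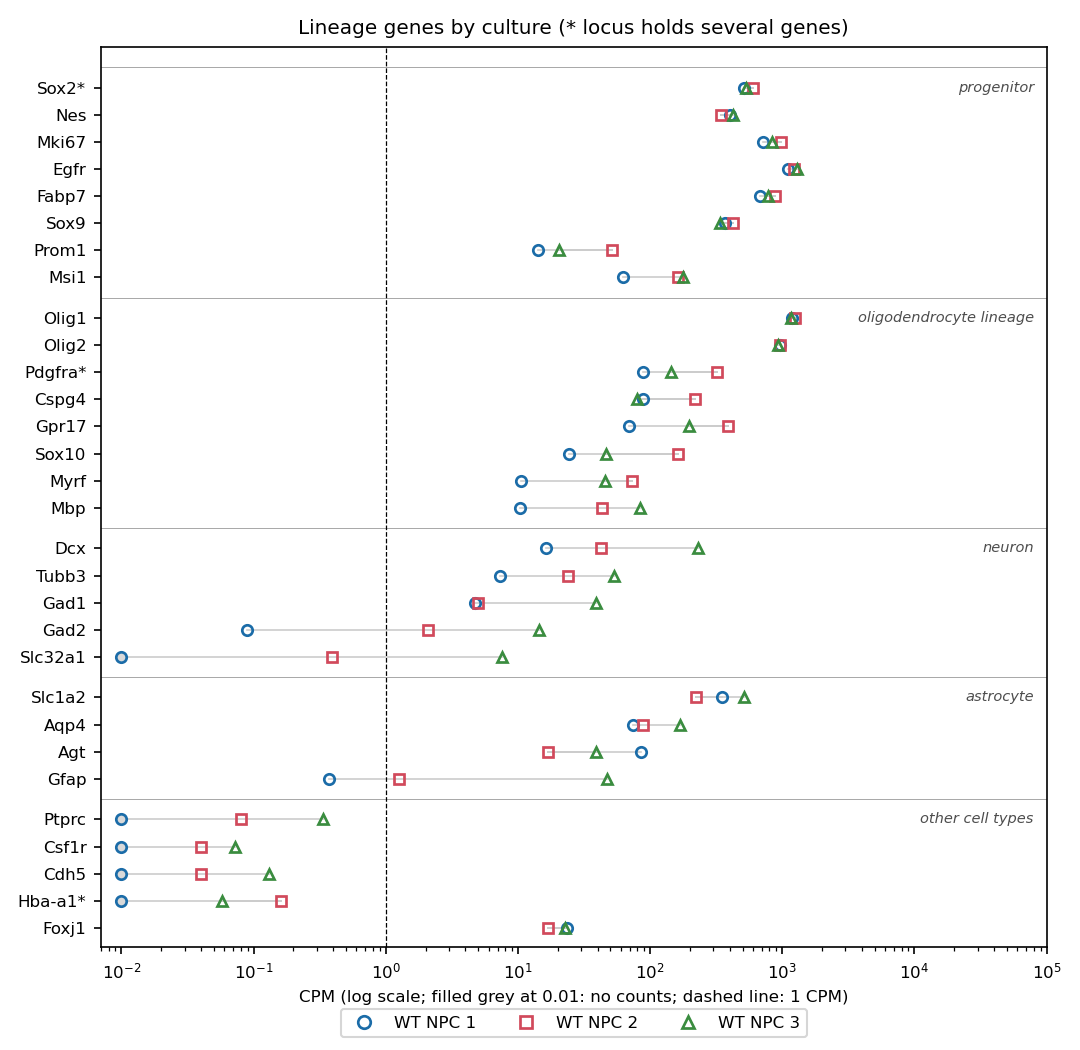
CPM (log scale) of lineage genes in WT NPC 1, 2 and 3, 1 row a gene, with values of 0 drawn at the left edge. Oligodendrocyte precursor genes such as *Sox10* were highest in WT NPC 2, and neuronal genes such as *Dcx* were highest in WT NPC 3.

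Most neuronal genes were low, and most were highest in WT NPC 3. Of 16 listed, 15 were detected with a median of 16.04 CPM, and 12 had a 2-fold spread, 9 of them highest in WT NPC 3. These 9 of 15 detected stand beside 4.24% of all detected loci. Of the 1765 loci with a spread, 640 were highest in WT NPC 3. Without WT NPC 1 or without WT NPC 3, 6 had a spread, and without WT NPC 2, 7. *Dcx*, a microtubule protein of migrating young neurons, had 16.3, 42.8 and 229.6 CPM. *Tubb3*, the neuronal beta-tubulin, had 7.34, 23.9 and 53.3 CPM, and *Gap43*, a growth cone protein, had 134, 58.8 and 90.4 CPM, highest in WT NPC 1. *Snap25* and *Syt1*, of the synaptic release machinery, had 8.32, 8.73 and 16.8 CPM and 1.79, 2.31 and 12.02 CPM. *Map2*, a microtubule protein gene, went the other way with 1343, 698 and 736 CPM and did not reach a 2-fold spread. With it included, the sum over the list was 1619, 995 and 1372 CPM, highest in WT NPC 1. *Stmn2* was undetected, with 0.104, 2.67 and 5.21 CPM.

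The genes of GABA synthesis and transport named here were highest in the same culture. Of 8 GABA neuron genes listed, 3 were detected, and 2 had a 2-fold spread, each highest in WT NPC 3 (background 4.24% of all detected loci). Summed over the list the values were 1008, 609 and 888 CPM, highest in WT NPC 1, so members not named here did not share this order. *Gad1*, which makes GABA, had 4.69, 4.94 and 38.9 CPM, *Gad2* had 0.0893, 2.09 and 14.5 CPM and *Slc32a1*, the vesicular GABA transporter, had 0, 0.389 and 7.56 CPM. *Dlx6os1*, a long noncoding RNA of the *Dlx5* and *Dlx6* locus, had 0, 3.21 and 54.1 CPM. WT NPC 1 had values of 0 or near 0 for each of these named genes but *Gad1*, and WT NPC 3 was highest for all of those named. Of 8 glutamatergic markers 1 was detected, not named here, with 14.8, 18.3 and 14.6 CPM. The vesicular glutamate transporter genes *Slc17a7* and *Slc17a6* had 0.238, 0.363 and 0.333 CPM and 0, 0.322 and 0.434 CPM.

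Astrocyte genes gave a mixed picture. Of 12 listed, 11 were detected and 5 spread, where 11.7% of all detected loci did. *Slc1a2* and *Glul*, for glutamate uptake and glutamine synthesis, had 347, 222 and 516 CPM and 256, 414 and 327 CPM, and *Aqp4*, the water channel, had 73.7, 89.0 and 169 CPM. *Agt*, angiotensinogen, was highest in WT NPC 1, with 84.7, 16.8 and 39.2 CPM. *Gfap*, the filament of mature astrocytes, was below the limit in WT NPC 1 and reached its highest level in WT NPC 3, with 0.372, 1.26 and 47.5 CPM. The genes of the list thus had no shared order of cultures.

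Defining markers of several other cell types were at or near 0. Of 12 microglia and macrophage genes 1 was detected, *Cd68*, with 3.23, 4.08 and 3.50 CPM, whereas *Cx3cr1*, *Csf1r* and *Aif1* had 0, 0.0403 and 0.0434 CPM, 0, 0.0403 and 0.0724 CPM and 0, 0 and 0 CPM. Of 12 endothelial and mural genes 4 were detected. *Cspg4*, which precursors of oligodendrocytes also express, had 89.0, 218 and 79.8 CPM and the contractile gene *Acta2* 9.56, 11.99 and 10.2 CPM, while the vascular receptor genes *Flt1* and *Kdr* had 1.88, 3.49 and 9.64 CPM and 2.84, 2.81 and 2.17 CPM. *Pecam1* and *Cdh5*, which mark endothelium, had 0.283, 0.349 and 0.594 CPM and 0, 0.0403 and 0.130 CPM. Of 9 neural crest and Schwann cell genes 2 were detected, and these were not near 0, with medians of 25.8, 145 and 114 CPM. Of the 2, *Sox10* is also of the oligodendrocyte lineage and the other is not named here, while *Foxd3* had 0, 0 and 0 CPM. Of 10 fibroblast and meningeal genes, *Fn1*, fibronectin, had 40.3, 44.6 and 72.4 CPM and *Col1a1* had 1.47, 2.31 and 4.84 CPM, and of 8 haemoglobin genes 0 were detected. *Foxj1*, the regulator of motile cilia, was detected with 23.6, 16.9 and 22.7 CPM, while 9 of the 12 ciliary genes were not. *Xist*, the RNA of the inactive X chromosome, had 1801, 1421 and 1358 CPM in a merged locus, and the Y-linked genes *Ddx3y*, *Uty*, *Kdm5d* and *Eif2s3y* had 0, 0 and 0 CPM, 0, 0.0134 and 0 CPM, 0, 0 and 0 CPM and 0, 0 and 0.0434 CPM. *Xist* was thus abundant and the Y-linked genes were at or below the level of a few counts in each of the 3 cultures.

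Regional transcription factors differed widely between cultures. Of 8 forebrain factors, 6 were detected and 6 of 6 had a 2-fold spread, 5 of them highest in WT NPC 2. Over all detected loci 11.7% spread, and 3.59% did so with WT NPC 2 highest. Without WT NPC 1, 7 were detected and 3 spread. Of these, *Lhx2* had 8.23, 54.0 and 30.3 CPM, *Six3* 21.7, 53.7 and 7.31 CPM and *Otx1* 62.2, 75 and 20.7 CPM. *Otx2*, of the forebrain and midbrain, was highest in WT NPC 1 with 63.8, 29.8 and 32.8 CPM. *Dmrta2* had 0.670, 11.4 and 3.01 CPM and *Rax* 0, 0 and 0.333 CPM, both undetected.

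Among 24 ganglionic eminence factors, of which 23 were found in the files, 12 were detected. That is 50% of the list, near the 52.4% of protein-coding genes in loci of their own. Of the 12, 5 had a 2-fold spread, 3 highest in WT NPC 2 and 2 in WT NPC 3. The background is 11.7% of all detected loci, 3.59% with WT NPC 2 highest and 4.24% with WT NPC 3 highest. Without WT NPC 1, 18 were detected and 6 spread, and without either of the others 12 were detected and 3 spread. The highest were shared with other regions. *Etv1* had 353, 370.4 and 286 CPM, *Nr2f1* and *Nr2f2*, which pattern the caudal eminence, had 109.7, 153 and 122.6 CPM and 143, 91.5 and 87.8 CPM, and *Meis1* and *Meis2* had 106, 102 and 113 CPM and 107, 264 and 208 CPM in merged loci. *Tshz1*, of olfactory bulb interneurons, had 19.01, 24.3 and 114 CPM, and *Foxp1*, of striatal neurons, had 26.8, 20.5 and 27.3 CPM in a merged locus. *Zfhx3* had 14.8, 22.2 and 18.1 CPM. The 5 that spread were *Tshz1*, *Meis2*, *Nkx2-1*, *Sp9* and *Six3*, the last of them also a forebrain factor. The *Dlx* genes, which mark its neuronal lineage, differed more widely. *Dlx1* had 0.0447, 3.08 and 19.5 CPM and *Dlx2* 0.208, 15.8 and 30.7 CPM. *Dlx5* had 0, 1.17 and 8.17 CPM and *Dlx6* 0.0298, 0.376 and 1.11 CPM. None of the 4 *Dlx* genes passed the limit in WT NPC 1, and each was highest in WT NPC 3. *Gsx2*, of the lateral eminence, had 0.729, 14.4 and 7.28 CPM, and *Gsx1* had 0.997, 3.29 and 2.61 CPM, both highest in WT NPC 2. Of the medial eminence, *Nkx2-1* had 1.82, 5.49 and 2.01 CPM, *Lhx6* 0, 0.537 and 0.203 CPM and *Lhx8* 0, 0 and 0.0434 CPM. *Sp8* had 0.506, 5.40 and 6.05 CPM, *Sp9* 3.05, 1.79 and 15.1 CPM, *Isl1* 0, 0.618 and 0.101 CPM and *Ebf1* 5.64, 5.32 and 3.45 CPM.

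Factors of other regions were also read. Of 12 dorsal telencephalic genes 5 were detected. *Pax6*, shared by progenitors of many regions, had 45.6, 42.4 and 44.4 CPM with almost no spread, and *Wnt7b* had 169, 142 and 220.5 CPM. *Emx2* had 7.10, 36.9 and 17.9 CPM, highest in WT NPC 2, and *Emx1*, particular to the cortex, had 0, 0.215 and 0.0724 CPM. *Neurog2*, the proneural factor of excitatory neurons, had 1.28, 1.33 and 0.434 CPM. In the diencephalic list *Tcf7l2* had 199.6, 183 and 171 CPM, *Barhl2* 17.7, 7.84 and 32.4 CPM and *Irx3* 14.7, 3.14 and 8.40 CPM. *En2*, a gene of the midbrain and hindbrain border, was the 1 of 10 midbrain genes detected, with 32.5, 5.28 and 14.1 CPM, and *En1* had 7.07, 0.658 and 1.72 CPM. Both were highest in WT NPC 1. The *Hox* genes of hindbrain and spinal cord were undetected at 0 of 39. A merged *Hoxa2* to *Hoxa6* locus had 1.32, 0.295 and 7.76 CPM, and *Hoxb2* had 0.0893, 0 and 2.03 CPM, each highest in WT NPC 3. These are levels in whole cultures, and whether 1 cell held several of these factors cannot be seen.

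**Figure D4:**
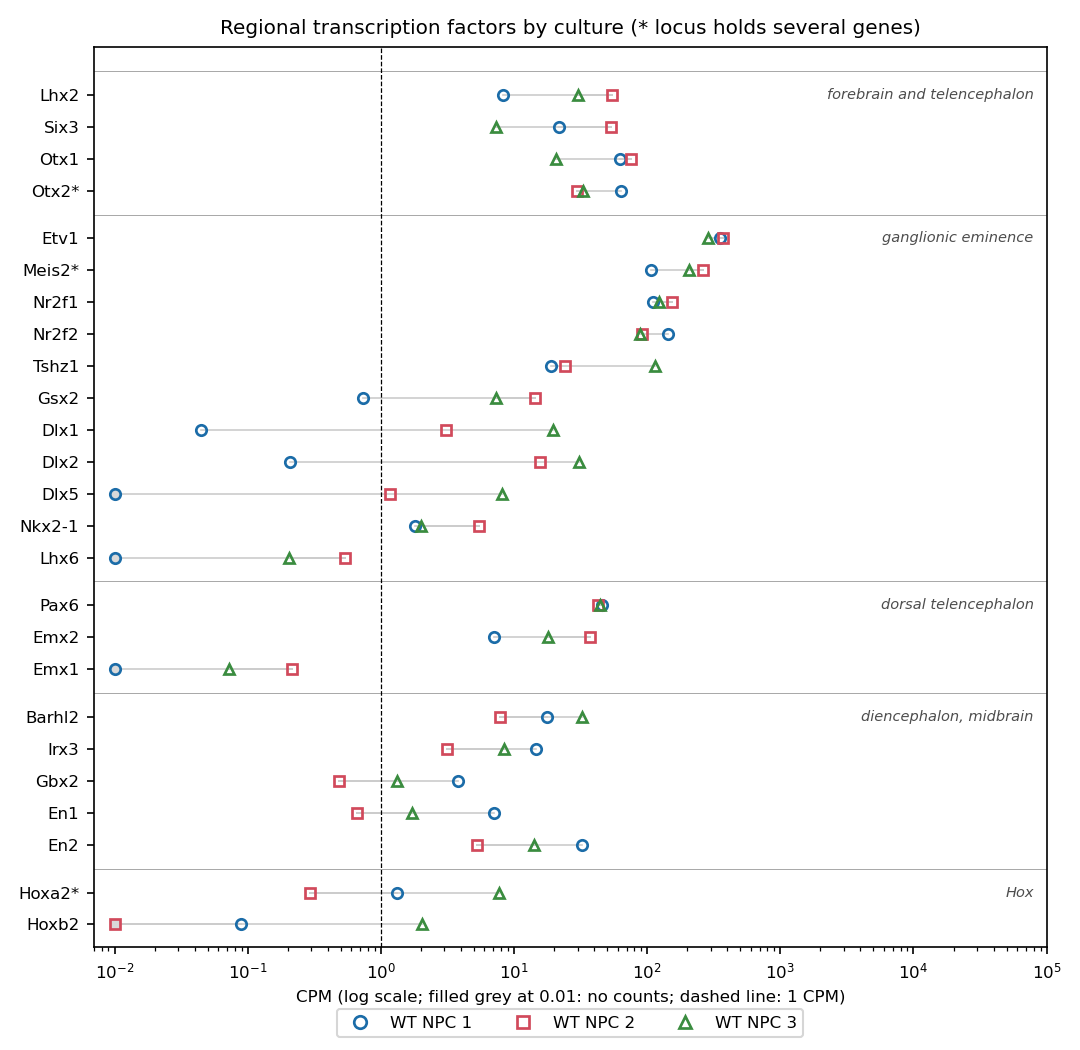
CPM (log scale) of regional transcription factors in WT NPC 1, 2 and 3, 1 row a gene or merged locus, with values of 0 at the left edge and the 1 CPM limit as a line. *Dlx* points of WT NPC 1 lie to the left of the other cultures, and the *En1* and *En2* points of WT NPC 1 lie to the right.

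Components of the EGF and ERK pathway were abundant. Of 21 genes, 19 were detected with a median of 165 CPM. Feedback inhibitors and target genes of the pathway were well above the median locus, with *Spry4* at 391, 366 and 331 CPM, *Spred1* at 387, 311 and 327 CPM and the ETS factor *Etv5* at 462, 282 and 333 CPM. *Erbb3*, a partner receptor, was undetected with 0.134, 1.88 and 2.08 CPM. Of the Notch pathway, which keeps progenitors undifferentiated, 17 of 18 genes were detected. The receptor *Notch1* had 527, 806 and 611 CPM and *Notch3* 231, 319 and 249.6 CPM, the glycosyltransferase gene *Lfng* 238, 230.1 and 265 CPM and the target *Hes5* 151, 274 and 155 CPM. The ligand-like *Dll3* spread, with 47.1, 160.3 and 61.4 CPM, highest in WT NPC 2.

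Receptors of the Hedgehog pathway were detected and the ligand was not. *Shh* had 0.0893, 0 and 0.376 CPM and the target *Gli1* 0.253, 0.524 and 0.290 CPM, while the receptor *Ptch1* had 285, 292 and 224 CPM and the transducer *Smo* 157, 147 and 159 CPM. *Gli3*, mainly a repressor, had 66.5, 103 and 73.8 CPM and *Gli2* had 11.4, 15.7 and 25.6 CPM. Wnt genes were detected at 17 of 18, with *Ctnnb1*, beta-catenin, at 833, 822 and 624 CPM in a locus shared with a microRNA, and the receptor *Fzd3* at 623, 551 and 588 CPM. *Lgr5* and *Nkd1*, targets of the pathway, had 30.1, 5.63 and 15.3 CPM and 31.7, 11.96 and 6.99 CPM, highest in WT NPC 1. FGF receptors 1 to 3 had 234, 219.6 and 240.5 CPM for *Fgfr1*, 149.6, 231 and 201 CPM for *Fgfr2* and 81.2, 137 and 109.9 CPM for *Fgfr3*.

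BMP genes and their *Id* targets were all detected (13 of 13), and 6 had a 2-fold spread, 5 of them highest in WT NPC 2. The background is 11.7% of all detected loci for a spread and 3.59% with WT NPC 2 highest. *Id1*, an inhibitor of proneural factors, had 9.87, 36.5 and 17.5 CPM, *Id2* 12.95, 41.5 and 46.6 CPM and *Id4* 6.58, 25.6 and 16.8 CPM. *Id2* was the exception, slightly higher in WT NPC 3 than in WT NPC 2. The ligand *Bmp4* had 1.18, 10.2 and 4.71 CPM and its antagonist *Nog* 1.18, 4.74 and 4.50 CPM. The receptor gene *Bmpr1a* had 249.4, 274 and 136 CPM, and *Smad5*, a transducer, had 537, 392 and 466 CPM in a merged locus.

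Immediate early genes, which are transcribed within minutes of a stimulus, were highest in WT NPC 2 where they spread. Of 18 listed 15 were detected and 8 had a 2-fold spread, all 8 highest in WT NPC 2. These 8 of 15 detected stand beside 3.59% of all detected loci. Of the 1765 loci with a spread, 542 were highest in WT NPC 2. Without WT NPC 2 the count was 1. *Egr1* had 374, 1055 and 593 CPM, *Fos* 23.7, 227 and 82.2 CPM and *Nr4a1* 21.2, 103 and 22.2 CPM. *Arc* had 45.5, 81.4 and 40.4 CPM, *Ier2* 22.1, 86.9 and 34.5 CPM and *Junb* 11.8, 43.8 and 14.8 CPM. Each of these was lower in WT NPC 1 and in WT NPC 3. *Egr2* and *Nr4a3* had 11.6, 30.3 and 10.03 CPM and 4.24, 19.8 and 5.05 CPM. *Fosb* reached 0.863, 46.2 and 7.96 CPM and missed detection through WT NPC 1. *Jun* and *Jund* had 109.5, 143 and 126 CPM and 114, 128 and 95.7 CPM, with less spread. The 90 bases before the starts of *Fos* and *Nr4a1* are printed because these were the detected genes of the list with the widest spread (RefSeq, GRCm38.p6). Capitals mark GC boxes (GGGCGG on either strand) and the TATAAA letters, which 14.2% of all promoters held. In detected protein-coding genes without a 2-fold spread 68.1% held a GC box and 5.85% held TATAAA. *Fos* lies at chr12:85473800-85473889 and *Nr4a1* at chr15:101266756-101266845, both on the plus strand.
Fos: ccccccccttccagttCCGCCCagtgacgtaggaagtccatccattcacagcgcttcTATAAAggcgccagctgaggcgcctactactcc
Nr4a1: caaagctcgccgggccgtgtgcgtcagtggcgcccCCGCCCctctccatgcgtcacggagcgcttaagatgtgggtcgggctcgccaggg

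Among hypoxia and glycolysis genes, most of those with a 2-fold spread were highest in WT NPC 1. Of 21 glycolytic genes 20 were detected, with a median of 128 CPM, and 6 spread, where 11.7% of all detected loci did. *Pkm*, in a merged locus, had 1038, 611 and 836 CPM, *Gapdh* 796, 528 and 674 CPM, *Gpi1* 667, 358 and 457 CPM and *Eno1* 569, 374 and 397 CPM. The 6 genes with a 2-fold spread included the glucose transporters *Slc2a1* and *Slc2a3*, with 82.3, 40.8 and 36.1 CPM and 33.4, 15.6 and 14.2 CPM, and *Pfkl*, liver-type phosphofructokinase, with 78.3, 33.2 and 28.5 CPM. These and *Eno2* were highest in WT NPC 1, while *Pgam1* and *Pfkp* were highest in WT NPC 3. The lactate exporter *Slc16a3* passed the limit in WT NPC 1 and 2 only, with 12.98, 1.34 and 0.623 CPM. Of 12 targets of the hypoxia-inducible factor, 10 were detected and 7 spread, all 7 highest in WT NPC 1. These 7 of 10 detected stand beside 3.86% of all detected loci. Of the 1765 loci with a spread, 583 were highest in WT NPC 1. Without WT NPC 1 the count was 1 for the hypoxia list and 1 for the glycolysis list. *Vegfa*, the vascular growth factor, had 83.6, 53.8 and 37.7 CPM, *Pdk1*, which holds pyruvate out of the TCA cycle, 43.9, 12.5 and 15.9 CPM, and *Bnip3*, of mitophagy, 34.2, 9.90 and 12.4 CPM. *Adm*, *Egln3* and *Ndrg1* had 25.1, 7.88 and 11.9 CPM, 44.4, 40.7 and 18.1 CPM and 9.84, 4.26 and 3.60 CPM. *Ddit4* and *Hk2* had 125, 80.1 and 70.2 CPM and 42.8, 43.0 and 26.8 CPM, with less spread. *Slc2a1* is a member of both lists.

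Few genes of oxidative metabolism reached a 2-fold spread, though sums over these lists were lowest in WT NPC 2. They were 4185, 3454 and 4051 CPM for the TCA cycle and 7700, 6506 and 7224 CPM for the nuclear respiratory chain. All 20 TCA cycle genes were detected and 1 spread. *Cs*, citrate synthase, had 996, 836 and 1036 CPM in a merged locus. Of 80 nuclear genes of the respiratory chain 76 were detected and 4 spread, which is 5.26% of those detected. Over all detected loci 11.7% spread, and 8.36% of those at 30 to 100 CPM. *Atp5b* and *Atp5a1*, of ATP synthase, had 819.7, 693 and 760.5 CPM and 625, 551 and 602 CPM. The exceptions were *Cox8a* with 247, 34.5 and 38.3 CPM, *Sdhc* with 97.5, 77.3 and 189.9 CPM, *Uqcrq* with 44.6, 36.4 and 73.3 CPM and *Ndufa11* with 14.6, 12.2 and 26.0 CPM. The promoters of 64 of the 76 were in the RefSeq table. The letters GCATGCGC, part of the motif of NRF1, occurred on either strand in 17.2% of these against 2.81% of all promoters, TTCCGG in 39.1% against 15.2%, and AAGATGGC in 14.1% against 2.88%. Detected genes hold these letters more often than all promoters do. In detected protein-coding genes without a 2-fold spread, of which 80.55% had a promoter in the table, the shares were 5.98% for GCATGCGC, 31.0% for TTCCGG and 5.26% for AAGATGGC. *Cycs*, cytochrome c, and *Ndufa8*, of complex I, are shown with GCATGCGC in capitals (90 bases before the start, RefSeq, GRCm38.p6), the first at chr6:50566570-50566659 and the second at chr2:36049339-36049428, both on the minus strand. They were chosen as examples after their values were seen. The letters stand on the listed strand.
Cycs: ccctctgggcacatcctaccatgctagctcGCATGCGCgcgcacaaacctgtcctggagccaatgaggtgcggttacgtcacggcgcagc
Ndufa8: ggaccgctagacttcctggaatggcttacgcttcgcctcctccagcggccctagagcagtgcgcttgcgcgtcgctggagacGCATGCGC

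Lipid synthesis genes were high, and none of those detected reached a 2-fold spread. All 23 genes of cholesterol synthesis and its control were detected with a median of 188 CPM and 0 with a 2-fold spread. Over all detected loci 11.7% spread, but 5.00% of those above 100 CPM and 8.36% of those at 30 to 100 CPM. A count of 0 in lists this short is near the shares at their level. *Hmgcs1*, which makes HMG-CoA, had 1864, 1388 and 1269 CPM, and *Srebf2*, a regulator of the pathway, 395, 477 and 302 CPM. Of 12 fatty acid synthesis genes 11 were detected, also with 0 spread. *Scd2*, a desaturase, had 1904, 2003 and 1778 CPM in a merged locus, *Fasn* 904, 1658 and 1242 CPM and *Acly*, which makes cytosolic acetyl-CoA, 475, 564 and 499 CPM. Fatty acid oxidation genes were lower, 14 of 14 detected with a median of 61.7 CPM, led by *Hadha* with 216, 199 and 228 CPM and *Cpt1a*, the entry step, with 165, 170.1 and 226 CPM. Serine synthesis was represented by *Psat1* and *Phgdh*, with 261, 428 and 237 CPM and 181, 185 and 177 CPM, and nucleotide synthesis by *Rrm1* and *Cad*, with 273, 299 and 336 CPM and 203, 250.2 and 273 CPM. The pentose phosphate enzymes, 7 of 7, had 0 with a 2-fold spread and were led by *Tkt*, transketolase, with 368, 379 and 354 CPM in a merged locus.

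Of the interferon-stimulated genes 6 of 16 were detected. *Ifit2* had 7.21, 4.54 and 11.8 CPM and *Rsad2* 3.45, 1.49 and 1.93 CPM. Of the integrated stress response, 13 of 15 genes were detected. *Atf4*, its central factor, spread with 31.9, 83.8 and 73.0 CPM, and so did *Chac1* with 3.32, 1.96 and 3.98 CPM. *Trib3* was undetected.

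Few genes of the machinery of RNA and protein synthesis reached a 2-fold spread. Translation factors (22 of 22 detected) and splicing factors (30 of 30) had 0 genes with a 2-fold spread, against 11.7% of all detected loci. *Eef2*, elongation factor 2, had 2248, 2204 and 2236 CPM, *Pabpc1*, the poly(A)-binding protein, 959, 861 and 1241 CPM, and *Hnrnpk* and *Hnrnpu*, of the hnRNP family, 625, 638 and 675 CPM and 562, 584 and 640.2 CPM. Loci above 100 CPM spread less often, and these lists have medians of 312 and 240.1 CPM, so the 5.00% of that level is the nearer reference. A count of 0 in lists this short is near that share. Of 26 chromatin regulators 1 spread, *Suz12*, of Polycomb complex 2, with 159, 79.5 and 85.3 CPM, in a locus of 41.0 kb. *Chd4* and *Smarca4*, of remodelling complexes, had 514, 609 and 522 CPM and 458, 533 and 543 CPM in merged loci, *Rad21*, of cohesin, 489.7, 486 and 481 CPM and *Dnmt1*, the maintenance methyltransferase, 284, 344 and 376 CPM.

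Cytoskeletal and matrix genes were among the most abundant coding genes. *Actb* had 3645, 3069 and 3312 CPM, *Marcks*, an actin-binding protein, 1990.0, 1890.0 and 1692 CPM, and the locus shared by *Tuba1a* and *Tuba1b* 1375, 1509 and 1695 CPM. *Ncan*, neurocan, a proteoglycan of the brain matrix, had 2058, 3449.9 and 2417 CPM and *Bcan*, brevican, 620.1, 715 and 559 CPM. Of 28 surface and matrix genes 25 were detected and 8 spread, 6 of them highest in WT NPC 2. The background is 11.7% of all detected loci, and 3.59% with WT NPC 2 highest. *Tnr*, made by the oligodendrocyte lineage, had 23.2, 156 and 81.4 CPM, the laminin receptor *Itga6* 263, 478 and 200.2 CPM and perlecan *Hspg2* 106, 215 and 104 CPM. *Lama1* and *Col11a1* had 12.4, 25.7 and 11.9 CPM and 17.2, 56.7 and 37.1 CPM. Creatine kinase B, *Ckb*, was among the 20 highest loci with 3078, 2014 and 2720.1 CPM.

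Imprinted genes, expressed from 1 parental allele, included wide differences at high level. Of 30 listed 26 were detected and 7 spread, 4 of them highest in WT NPC 3. The background is 11.7% of all detected loci, and 4.24% with WT NPC 3 highest. Of the 1765 loci with a spread, 640 were highest in WT NPC 3. *Peg10*, a retrotransposon-derived gene, had 1094, 397 and 379 CPM, highest in WT NPC 1. *Grb10*, an adaptor that restrains growth factor signalling, had 121, 291 and 59.9 CPM, highest in WT NPC 2. *Peg3* and *Gnas* had 256, 214 and 275 CPM and 983, 974 and 918 CPM, with less spread. *Meg3*, a noncoding RNA of the *Dlk1* domain, had 1.07, 13.6 and 37.4 CPM, and *Rian*, of the same domain, 2.98, 8.50 and 21.9 CPM, both in merged loci and both highest in WT NPC 3. *H19* and *Igf2*, neighbours on chromosome 7, had 1.70, 10.3 and 8.63 CPM and 2.74, 2.23 and 4.604 CPM in merged loci. Of the long noncoding RNAs, *Malat1* had 1197, 1064 and 1520.3 CPM and *Neat1* 36.2, 18.9 and 52.2 CPM, in merged loci that hold small predicted genes, *Miat* had 11.3, 32.4 and 39.7 CPM, and *Kcnq1ot1* had 72.6, 65.7 and 81.5 CPM.

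Promoters were also read for histone, ribosomal protein and splicing genes. Of 25 histone promoters found for 27 detected genes, 60% held TATAAA against 14.2% of all promoters, and 76% held CCAAT on either strand against 37.9%. Median GC content was 45.3% against 52.7%. In the 28 of 30 splicing genes found, 64.3% held CCAAT. For 50 detected ribosomal protein genes, 40 promoters were found, and 50% held TTCCGG against 15.2% of all. In the detected protein-coding genes without a 2-fold spread TATAAA was in 5.85%, CCAAT in 39.9% and TTCCGG in 31.0%, and median GC content was 61.7%. Motif lists of neural progenitor, proliferation, immediate early and cholesterol genes, and of detected against undetected protein-coding loci, had fewer than 80% of promoters and were left out as void. The promoter of *Hist1h1b* (chr13:21780626-21780715, minus strand) and that of *Hist1h4d* (chr13:23581478-23581567, plus strand) are printed to show the arrangement where it is present, with CCAAT, its reverse complement ATTGG and TATAAA in capitals (90 bases before the start, RefSeq, GRCm38.p6). The same stretch of *Hist2h3c2* was also read, held none of these motifs and is not printed. Histone clusters hold near-identical genes, and fragments shared between copies make the level of each uncertain.
Hist1h1b: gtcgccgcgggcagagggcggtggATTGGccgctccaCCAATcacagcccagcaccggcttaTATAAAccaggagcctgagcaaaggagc
Hist1h4d: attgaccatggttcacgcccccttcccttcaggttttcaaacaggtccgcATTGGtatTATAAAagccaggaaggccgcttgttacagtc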

How the data were processed

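RNA-seq counts of the 3 WT libraries were taken as the authors deposited them, as raw counts per locus. The deposited log2 columns hold the authors' normalised CPM per library and per group, on the library scale and relative to *Rn7sk*, and were not used. Per the labels, libraries were directional, made from 250 ng of RNA after removal of rRNA, and read with 100 cycles in paired mode. The submitters' processing notes name Trimmomatic, STAR, Picard, StringTie, edgeR and GRCm38, without versions. How fragments were counted, on which strand and with what rule for reads that fit several places, was not stated in those notes, the labels or the methods. Overlapping and near-identical genes are therefore uncertain. Per-sample columns left without a sample numbered 0.

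CPM was computed from the total over all loci, and CPM per kilobase from the exon length in the file (Python 3.11.15, pandas 2.3.3). Lists, classes and members were chosen with earlier results of these data known. Named genes were the highest 6 of each list by mean CPM, those with a 2-fold spread, the highest undetected member, all regional factors, the 20 highest loci, the 5 highest of each class, the 20 largest ratios at 10 CPM or more and the 10 smallest coefficients of variation at 100 CPM or more, both among loci naming 1 gene. *Shh*, *Gli1*, *Slc17a6*, *Slc17a7*, *Cx3cr1*, *Csf1r*, *Aif1*, *Pecam1*, *Cdh5*, *Foxd3*, the Y-linked genes other than *Eif2s3y*, *Rps3a3*, *Gm28438*, *Cycs* and *Ndufa8* fall outside this rule and were chosen after their values were seen. Some genes that the rule names are not reported here. The class rules were corrected after values were seen, so that protein-coding genes whose symbols end like those of antisense genes, and kinase genes whose symbols begin like those of ribosomal protein genes, count as ordinary genes. The biological coefficient of variation came from an intercept fit in edgeR 4.0.16 with TMM scaling as an alternative, and DESeq2 1.42.0 size factors as another (R 4.3.3), checked on simulated data. Copies were aligned with biotite 1.4.0, and motifs were counted on both strands of RefSeq promoters, 250 bases before to 50 after the start. Differences between cultures cover biological and technical spread, and depth covers counting error only.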

Additional observations from a re-analysis of the deposited data

How the results depend on the processing

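No paired analysis was possible because 1 group was described and no groups were compared. The number of detected loci was 15097 and moved to 27375 when 1 count in all 3 cultures was enough. The number with a 2-fold spread was 1765. It was 887 with a limit of 5 CPM, 9148 with no limit, 4224 at a fold of 1.5 and 349 at a fold of 4. Leaving out 1 culture at a time gave 855 to 1061, since a ratio of 2 cultures has less room than one of 3, and the lowest value was that without WT NPC 1. The biological coefficient of variation of 0.251 was 0.349 with no limit and 0.232 to 0.261 with 1 culture left out. The share of ordinary genes, 68.2%, was 69.2% with the total over named loci and 69.0% without *Rn7sk*. TMM or DESeq2 scaling left the counts of detected and spread loci within 1.5 times. Of 135 listed loci with a 2-fold spread, TMM lost 7 (*Peg13*, *Mapt*, *Ndufa11*, *Uqcrq*, *Chac1*, *Igf2* and *Snap25*) and gained 6. Of 282 list medians under other settings 3 moved by more than the spread between cultures. That spread is wide for some lists, and 8 medians of 7 lists moved by over 1.5 times with 1 culture left out: GABA neuron genes from 16.2 to 4.82 CPM and diencephalic genes from 19.3 to 12.8 CPM without WT NPC 3, oligodendrocyte precursor genes from 201 to 125 CPM, forebrain factors from 30.7 to 19.4 CPM and immediate early genes from 47.8 to 21.7 CPM without WT NPC 2, the 1 midbrain gene from 17.3 to 9.68 CPM without WT NPC 1, and myelin genes from 42.7 CPM to 27.9 without WT NPC 2 and 27.2 without WT NPC 3. Counts of list genes with a culture left out were added after the data were seen. Depth limits loci near 1 CPM, where counting alone gives a coefficient of variation near 12%.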

Other observations

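Genes outside the lists also differed between cultures at high level, and they were chosen here after their values were seen. Of the insulin-like growth factor binding protein genes detected in loci of their own, 3 of 4 were highest in WT NPC 1. The family was picked for its values, so this count is no support for a family trait. *Igfbp3* had 748, 355 and 581 CPM, *Igfbp4* 622, 138 and 238 CPM and *Igfbp5* 436, 168 and 237 CPM, whereas *Igfbp2* had 432, 264 and 481 CPM. *Mt1*, a metallothionein, had 234, 109 and 100.4 CPM and the protease inhibitor gene *Serpine2* 809.5, 339.9 and 483 CPM, both highest in the same culture. In WT NPC 2 the endocytic receptor gene *Lrp1* had 186, 560.3 and 269 CPM and the neurotrophin receptor gene *Ntrk3* 72.9, 155 and 79.0 CPM. In WT NPC 3 the cytoskeletal bundling protein gene *Fscn1* had 216, 310.2 and 487 CPM and the nuclear receptor gene *Rorb* 89.8, 99.6 and 232 CPM.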
